A study of Mus musculus with 12 samples.

Results

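The regions described here are stretches of the autosomes where the histone mark H3K4me3 was called in both libraries of one genotype label and in neither library of the other. Overlapping peaks of the 4 H3K4me3 lists were merged, and 43826 autosomal regions resulted. Of these, 645 had a peak only in the 2 libraries labelled Tg (1.47% of all merged regions) and 984 only in the 2 libraries labelled WT (2.25%), which makes 1629 members. Another 23935 regions had a peak in all 4 libraries, and 18262 had some other incomplete pattern. Members were chosen by the presence of H3K4me3 peaks in these libraries, so their numbers and their H3K4me3 values are a description and carry no test.

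The libraries came from cKit+ bone marrow cells of C57BL/6 mice, which are blood stem and progenitor cells sorted for the receptor Kit. The compared mice were Phf6R274X Tg, which carry a transgene with a stop codon in the chromatin protein gene Phf6, and wild type. Chromatin immunoprecipitation with sequencing (ChIP-seq) was run for H3K27ac, H3K4me1 and H3K4me3, with 2 libraries per genotype and mark and 12 in all. What drives the transgene, the sex and age of the mice and whether animals were pooled are not given in the sources used here, so the p-values measure only the spread between these libraries, which may be technical.

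The genotype of the H3K4me3 libraries has 2 readings. The peak names inside both lists labelled Tg carry WT, and the peak names inside both lists labelled WT carry Tg274, while the names in the H3K27ac and H3K4me1 lists match their labels. The regions are therefore called Tg-labelled and WT-labelled regions. By the peak names, the 645 Tg-labelled regions would be regions of WT mice and the 984 WT-labelled regions would be regions of Tg mice. The H3K27ac and H3K4me1 values below do not have this doubt, and Tg and WT without the word labelled refer to those libraries.

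H3K4me3, trimethylation of lysine 4 on histone H3, is laid down at gene starts by the SET1 and MLL methyltransferases and is widest and strongest at promoters rich in CpG dinucleotides. H3K27ac, acetylation of lysine 27, marks promoters and enhancers in use, and H3K4me1 marks enhancers and the flanks of promoters. In stem and progenitor cells many promoters of developmental genes that are not in use carry weak H3K4me3 without H3K27ac, and weak H3K4me3 peaks also occur at active enhancers.

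Promoter sequences show the plainest contrast between the groups of regions. In a RefSeq table of GRCm38.p6 promoters, each of 300 bases from 250 before to 50 after an annotated start, 20055 promoters of 16430 autosomal genes could be set beside the regions. Only 3 of them overlapped a Tg-labelled region, and all 3 are printed with every CpG in capitals. Pax5 encodes the transcription factor that fixes B cell identity, Chil5 encodes a chitinase-like protein, and Gm1070 is a predicted gene. The Pax5 window lies at chr4:44710645-44710944 on the minus strand, that of Chil5 at chr3:106032846-106033145 on the minus strand and that of Gm1070 at chr6:71293515-71293814 on the plus strand.
Pax5: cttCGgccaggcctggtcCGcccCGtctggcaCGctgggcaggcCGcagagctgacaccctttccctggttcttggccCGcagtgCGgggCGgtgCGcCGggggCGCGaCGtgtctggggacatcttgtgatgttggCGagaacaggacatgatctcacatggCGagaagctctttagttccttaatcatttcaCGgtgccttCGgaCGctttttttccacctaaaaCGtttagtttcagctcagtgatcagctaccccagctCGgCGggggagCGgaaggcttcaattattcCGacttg
Chil5: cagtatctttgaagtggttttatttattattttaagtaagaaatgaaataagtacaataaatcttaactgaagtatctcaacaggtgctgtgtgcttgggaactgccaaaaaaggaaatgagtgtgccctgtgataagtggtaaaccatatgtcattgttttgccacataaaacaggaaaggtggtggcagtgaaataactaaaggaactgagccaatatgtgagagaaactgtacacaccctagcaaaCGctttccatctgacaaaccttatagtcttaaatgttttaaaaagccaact
Gm1070: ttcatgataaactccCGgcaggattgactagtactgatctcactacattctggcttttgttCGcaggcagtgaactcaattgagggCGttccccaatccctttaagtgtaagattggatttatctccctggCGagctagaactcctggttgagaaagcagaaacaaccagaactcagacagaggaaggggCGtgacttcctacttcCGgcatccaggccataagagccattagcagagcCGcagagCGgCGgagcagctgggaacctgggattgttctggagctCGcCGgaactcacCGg

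By contrast, 70 promoters of 63 genes overlapped a WT-labelled region. The 4 printed ones are that of Noxa1, under the WT-labelled region of highest H3K4me3 strength at any promoter, those of the developmental transcription factor genes Tlx3 and Sox2, and that of Adamtsl3, which encodes a protein of the extracellular matrix and has the densest CpGs of the 4. The Noxa1 window is chr2:25095156-25095455 on the minus strand, that of Tlx3 chr11:33203539-33203838 on the minus strand, that of Sox2 chr3:34649745-34650044 on the plus strand and that of Adamtsl3 chr7:82335444-82335743 on the plus strand.
Noxa1: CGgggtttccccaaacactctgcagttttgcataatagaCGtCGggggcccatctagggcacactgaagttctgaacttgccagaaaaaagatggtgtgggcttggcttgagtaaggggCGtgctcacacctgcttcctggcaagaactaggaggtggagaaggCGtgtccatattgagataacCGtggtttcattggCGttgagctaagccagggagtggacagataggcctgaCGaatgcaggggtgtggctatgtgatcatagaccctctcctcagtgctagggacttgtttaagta
Tlx3: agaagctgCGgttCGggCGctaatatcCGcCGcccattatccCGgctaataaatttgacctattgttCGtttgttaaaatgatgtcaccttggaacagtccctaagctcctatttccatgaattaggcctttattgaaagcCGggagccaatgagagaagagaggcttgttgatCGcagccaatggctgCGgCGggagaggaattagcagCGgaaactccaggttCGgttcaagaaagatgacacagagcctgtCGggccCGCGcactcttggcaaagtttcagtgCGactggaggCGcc
Sox2: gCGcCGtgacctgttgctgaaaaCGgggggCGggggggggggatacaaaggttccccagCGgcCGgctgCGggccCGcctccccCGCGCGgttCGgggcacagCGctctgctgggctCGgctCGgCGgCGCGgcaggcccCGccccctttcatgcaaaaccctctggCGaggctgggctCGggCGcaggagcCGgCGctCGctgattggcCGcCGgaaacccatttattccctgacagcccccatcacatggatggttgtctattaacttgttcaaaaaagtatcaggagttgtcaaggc
Adamtsl3: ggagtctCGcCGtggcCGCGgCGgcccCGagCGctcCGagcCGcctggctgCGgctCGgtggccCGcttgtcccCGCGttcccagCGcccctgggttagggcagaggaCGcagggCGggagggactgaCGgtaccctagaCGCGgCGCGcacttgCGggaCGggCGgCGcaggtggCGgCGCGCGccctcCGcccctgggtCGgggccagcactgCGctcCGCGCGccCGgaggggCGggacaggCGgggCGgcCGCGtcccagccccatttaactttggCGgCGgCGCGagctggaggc

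The windows hold 23 CpGs at Pax5, 1 at Chil5 and 12 at Gm1070, against 8 at Noxa1, 18 at Tlx3, 27 at Sox2 and 46 at Adamtsl3. The ratio of observed to expected CpGs, which corrects for the content of C and G, was 0.882 at Pax5, 0.106 at Chil5 and 0.585 at Gm1070. It was 0.412 at Noxa1, 0.905 at Tlx3, 0.819 at Sox2 and 0.997 at Adamtsl3. Over the 70 promoters in WT-labelled regions its median was 0.673, and 44 of the 70 (62.9%) lay above 0.6. The median was 0.780 for promoters in regions of all 4 libraries, 0.567 for those in the other variable regions and 0.196 for those in no H3K4me3 region, and 48.9% of all promoters lay above 0.6. The promoters under WT-labelled regions were thus nearer in CpG content to those with constant H3K4me3 than to those without the mark. They included Nkx3-2, a homeobox gene, Fgf5, a growth factor gene, Dll3, a Notch ligand gene, and Kcnh2, a potassium channel gene, all named after their values were seen. An H3K27ac peak within 1 kb of the region was found for 3 of the 70 (4.29%), those of Rnase4, Sirpb1c and Tlr1, and for 1 of the 3 promoters in Tg-labelled regions, that of Chil5.

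Short motifs of transcription factors, searched on both strands, had lower shares in the 70 promoters than in all promoters. The GATA motif AGATAA was in 4.29% of the 70 promoters and in 9.57% of all promoters, the ETS motif GGAAGT in 14.3% and 25%, and the RUNX motif TGTGGT in 7 promoters of the 70 and 14.7% of all. The AP-1 motif TGACTCA was in 2.86% and 4.70%, the E-box CACGTG in 7.14% and 7.88%, and CCAAT in 30.0% and 38.1%. Promoters in regions of all 4 libraries were low too for GATA (5.61%), RUNX (11.6%) and AP-1 (3.15%), so lower shares of these motifs are not particular to the 70. Of the 3 promoters in Tg-labelled regions, Gm1070 held the GATA, the ETS and the CCAAT motif, Chil5 held CCAAT and Pax5 held none of the 6.

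The position of the regions differed in the same way. Of the Tg-labelled regions, 39 (6.05%) lay within 1 kb of an end of a protein-coding gene, 394 (61.1%) lay farther inside a gene and 212 (32.9%) lay outside genes. Of the WT-labelled regions, 138 (14.0%) lay near a gene end, 504 (51.2%) inside a gene and 342 (34.8%) outside. Gene ends held 48.4% of the regions of all 4 libraries and 9.71% of the other variable regions. Where the promoter table covers the chromosome, 22 of 628 Tg-labelled regions (3.50%) and 103 of 959 WT-labelled regions (10.7%) lay within 1 kb of a listed start site, against 25.9% of all regions.

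**Figure D1:**
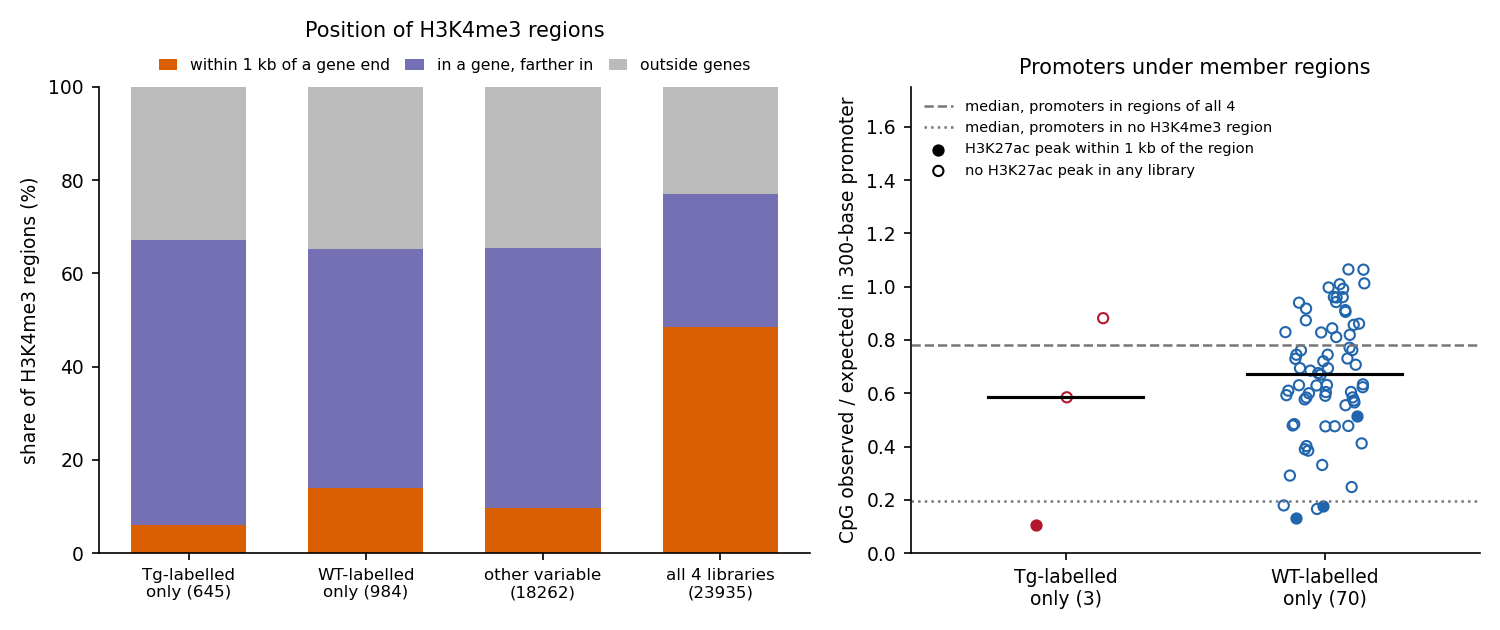
Left, the share of H3K4me3 regions (%) that lie within 1 kb of a gene end, farther inside a gene or outside genes, for each presence pattern with its number of regions. Right, the ratio of observed to expected CpGs in each promoter that overlaps a Tg-labelled or WT-labelled region, with the group median as a black line; filled points have an H3K27ac peak within 1 kb of the region in at least 1 library. Gene ends hold 6.05% of Tg-labelled and 14.0% of WT-labelled regions, and 3 of the 70 points at right are filled.

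Members were narrow and weak peaks. Their median width was 371 bp for Tg-labelled and 345.5 bp for WT-labelled regions, against 276 bp for other variable regions and 1451 bp for regions of all 4 libraries. Strength was taken as the smaller of a region's percentiles of −log10 q within the lists that hold it, where 0 is the weakest peak of a list and 100 the strongest. Its median was 9.36 for Tg-labelled and 10.5 for WT-labelled regions, against 62.1 for regions of all 4 libraries, and its highest value was 46.6 and 62.8 in the members. The weaker peak of a member had a median deposited −log10 q of 3.42 (1.42 to 12.4) in Tg-labelled and 3.62 (1.36 to 30.6) in WT-labelled regions.

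Just outside the rule lay 1689 regions with a peak in both Tg-labelled libraries and in 1 WT-labelled library, and 2383 with the labels the other way round. Their median strength was 12.2 and 14.8 and their median width 503 and 522 bp, so these regions too were weak. Single libraries contributed unequally, since 2958 and 1715 regions were seen only in replicate 1 and only in replicate 2 of the Tg-labelled libraries, and 4821 and 1715 only in replicate 1 and only in replicate 2 of the WT-labelled libraries. The share of autosomal regions that were Tg-labelled ranged between 0.871% on chromosome 4 and 2.17% on chromosome 16, and the WT-labelled share between 1.70% on chromosome 7 and 2.83% on chromosome 11.

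The 2 groups of regions sat in different surroundings. Both other marks lay within 1 kb in at least 1 library at 502 of 645 Tg-labelled regions (77.8%) but at 439 of 984 WT-labelled regions (44.6%). H3K4me1 alone accompanied 17.1% and 39.9%, and 2.48% and 14.6% had neither mark. Among all merged regions 68.9% had both marks, 24% H3K4me1 alone and 5.55% neither. At start sites H3K27ac was found at 10 of 22 Tg-labelled regions (45.5%), 11 of 103 WT-labelled regions (10.7%) and 81.6% of regions of all 4 libraries. It was found there at 27.7% of other variable regions and 75.4% of all regions. The median distance to the nearest region of all 4 libraries was 4522.5 bp for Tg-labelled and 9116 bp for WT-labelled regions, and 37.6% and 26.3% lay within 2 kb of one.

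The share of Tg-labelled regions with an H3K27ac peak was lower in both Tg libraries than in both WT libraries. The share of these 645 regions with a peak was 38.8% and 53.3% in the Tg libraries, against 65.6% and 55.7% in the WT libraries. The means were 46.0 ± 10.3% in Tg and 60.6 ± 7.02% in WT (SD, n = 2 each), and the 2 Tg libraries were the lower ones with no overlap. The difference of −14.6 points had an exact permutation p of 0.333, two-sided, which is the smallest that 2 against 2 libraries can give. No share of regions can therefore pass a threshold of 0.05 in this design. Without replicate 1 of Tg the difference was −7.29 points, and without replicate 2 of Tg it was −21.9 points.

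The WT-labelled regions showed no such order. Their share with an H3K27ac peak was 21.1% and 27.8% in the Tg libraries, against 27.7% and 21.0% in the WT libraries, so the groups overlapped. The difference was 0.102 points with an exact permutation p of 0.667, two-sided. Over all merged regions the difference was −3.89 points (p = 0.667, exact permutation test). The gap between the shares of Tg-labelled and WT-labelled regions was 17.6 and 25.5 points in the Tg libraries, against 37.8 and 34.6 points in the WT libraries, and this difference of −14.7 points, a comparison added after the data were seen, again had the smallest exact permutation p of 0.333.

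**Figure D2:**
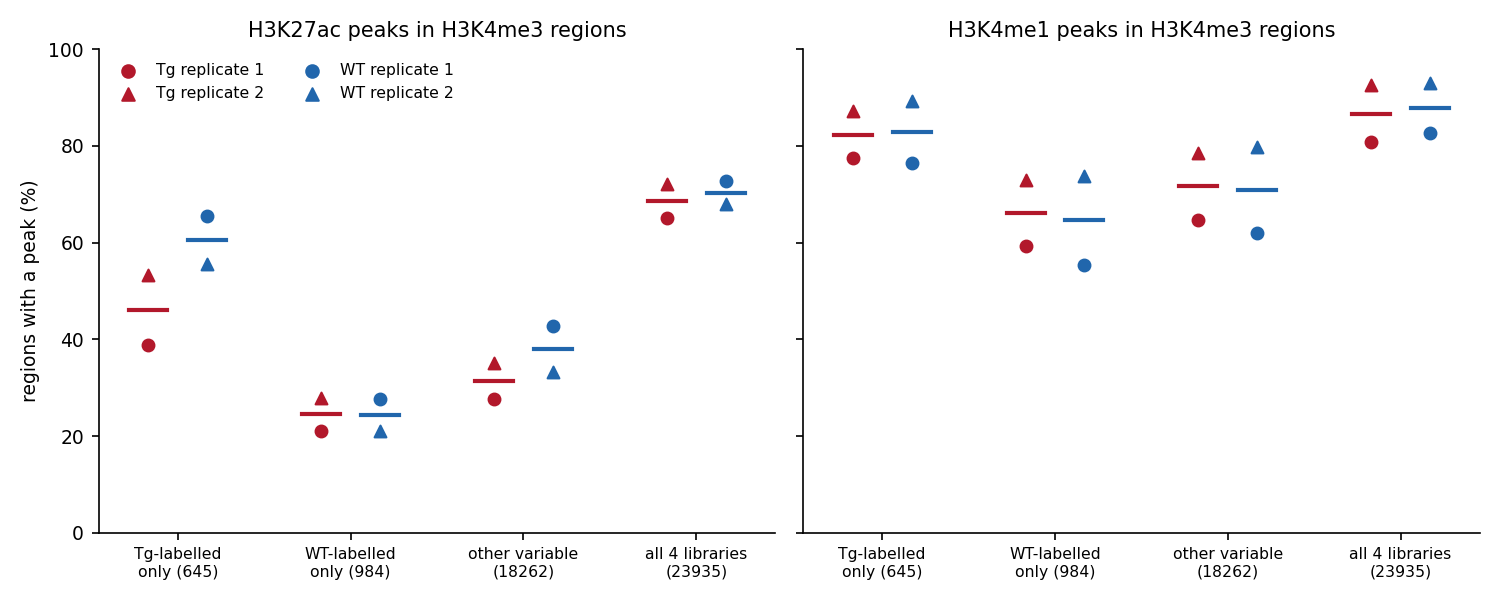
Share of H3K4me3 regions (%) that overlap a peak of H3K27ac, left, or H3K4me1, right, in each library, by presence pattern with its number of regions. Points are single libraries, circles replicate 1 and triangles replicate 2, and bars are means of 2 libraries. At Tg-labelled regions both Tg libraries (38.8% and 53.3%) lie below both WT libraries (65.6% and 55.7%) for H3K27ac, and the H3K4me1 libraries overlap in every pattern.

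The length of H3K27ac peaks within 1 kb of each region gave the same order region by region. It was lower in both Tg than in both WT libraries at 280 of 645 Tg-labelled regions (43.4%), against a background of 29.1% over all merged regions. It was higher in both Tg libraries at 27 (4.19%, background 4.92%). Among WT-labelled regions 125 of 984 (12.7%) were lower and 55 (5.59%) were higher in both Tg libraries. The low share of lower regions there goes with the 45.4% of WT-labelled regions that had any H3K27ac peak within 1 kb, against 80.5% of Tg-labelled and 70.4% of all regions. Of regions with any such peak, 53.9% of the Tg-labelled, 28.0% of the WT-labelled and 41.4% of all were lower in both Tg libraries. Within the regions alone, without the added 1 kb, 141 Tg-labelled regions (21.9%) were lower in both Tg libraries. That share was near the 20.6% over all regions, which include the wider regions of all 4 libraries (28.9%). It was above the 10.4% of other variable regions, which are narrow too, and 63 of 984 WT-labelled regions were lower. Without the flanks the excess over all regions was thus small, while that over other variable regions remained.

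H3K27ac peaks had a median length of 591 and 574 bp in the Tg libraries, against 717 and 852 bp in the WT libraries. After quantile normalization of the lengths over the merged regions, a step added after the data were seen, 185 Tg-labelled regions (28.7%) were lower and 88 (13.6%) higher in both Tg libraries. Of the WT-labelled regions 66 (6.71%) were then lower and 145 (14.7%) higher, against 13.5% lower and 19.7% higher over all regions. Lower regions thus made up 91.2% of the separated Tg-labelled regions with the deposited lengths and 67.8% after normalization. The corresponding shares were 69.4% and 31.3% for WT-labelled and 85.6% and 40.7% for all regions, so the Tg-labelled group lay above and the WT-labelled group below the background on both scales.

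**Figure D3:**
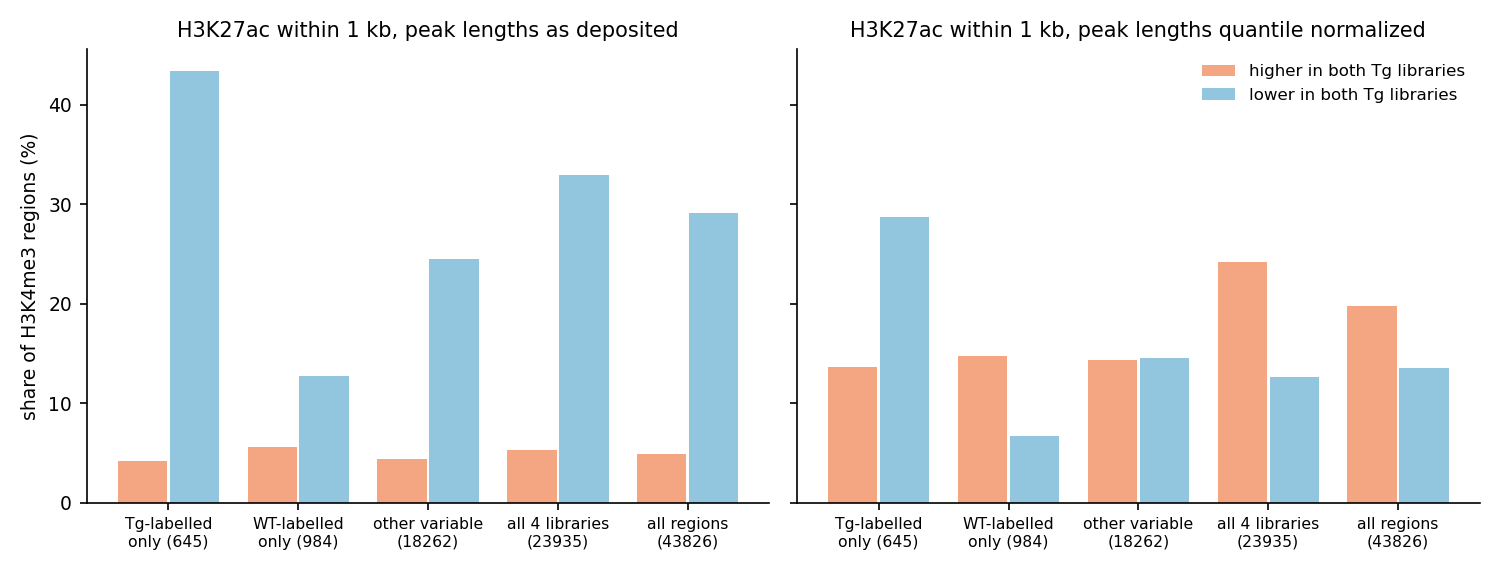
Share of H3K4me3 regions (%) at which the H3K27ac peak length within 1 kb was higher (orange) or lower (blue) in both Tg than in both WT libraries, by presence pattern with its number of regions; left with the deposited lengths, right after quantile normalization. Tg-labelled regions have the largest lower share of the patterns shown in both panels, 43.4% and 28.7%.

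Presence alone gave the same order at Tg-labelled regions, while at WT-labelled ones the 2 counts were close. An H3K27ac peak lay within 1 kb in no Tg and both WT libraries at 39 Tg-labelled regions (6.05%, background 2.02%) and at 23 WT-labelled regions (2.34%). A peak in both Tg and no WT libraries was seen at 5 Tg-labelled regions (0.775%, background 0.974%) and at 19 WT-labelled regions (1.93%). Both WT-labelled shares thus lay above the background, while their share with lower peak length (12.7%) lay below its background of 29.1%. The Tg-labelled regions lower in both Tg libraries numbered 9 of 39 near gene ends (23.1%), 172 of 394 inside genes (43.7%) and 99 of 212 outside (46.7%). Among WT-labelled regions the numbers were 6 of 138 near gene ends (4.35%), 88 of 504 inside genes (17.5%) and 31 of 342 outside (9.06%).

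Both readings of the H3K4me3 genotype follow from these counts. Read by label, the H3K4me3 gain at Tg-labelled regions went with higher H3K27ac in Tg at 27 regions and against it at 280. Read by peak name, H3K4me3 and H3K27ac had the same direction at those 280 regions, or 91.2% of the 307 with separated groups. At the WT-labelled regions the same direction was found at 125 regions by label and at 55 by peak name, or 69.4% and 30.6% of 180. Since 85.6% of all separated regions were lower in Tg, the share by label at WT-labelled regions and the share by name at Tg-labelled regions have to be read against that value, and after quantile normalization against 40.7%.

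Of 20665 autosomal protein-coding genes, 410 had a gene end within 10 kb of a Tg-labelled region and 687 within 10 kb of a WT-labelled region, and such genes are called near below. Another 191 and 229 genes held a Tg-labelled or WT-labelled region only farther inside, such as Ptprm, Nos1ap and Runx1, and are not counted here or in the gene lists. Only 25 genes lay near both, which is 6.10% of the Tg-labelled and 3.64% of the WT-labelled genes. For each gene the length covered by H3K27ac peaks within 10 kb of its ends was compared on the log2 scale, after adding 500 bp, with limma over all 12722 genes tested and Benjamini-Hochberg adjustment. In the lengths as deposited, 5744 of these 12722 genes were lower in both Tg than in both WT libraries and 698 were higher. An order without overlap on the lower side was thus common among all genes. Over all genes tested, 11 rose (0.0865%) and 19 fell (0.149%) in Tg at an adjusted p under 0.05.

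Of 378 tested genes near Tg-labelled regions none rose or fell by that test, and of 514 near WT-labelled regions none rose and 2 fell. At an unadjusted limma p under 0.05, 23 genes near Tg-labelled regions were higher and 69 lower in Tg (6.08% and 18.3%), against 5.55% higher and 7% lower over all genes tested. Near WT-labelled regions 46 were higher and 42 lower (8.95% and 8.17%). Of only 27 tested genes within 1 kb of a Tg-labelled region, 5 were higher (18.5%) and 4 lower (14.8%). Of 68 within 1 kb of a WT-labelled region, 5 were higher (7.35%) and 4 lower (5.88%). By this unadjusted p, lower genes thus did not outnumber higher ones within 1 kb of Tg-labelled regions. In the lengths as deposited, 12 of those 27 genes were lower in both Tg libraries and 4 higher. After normalization 55.6% of the 27 lay below 0, against 44.7% of all genes tested. The median log2 change was −0.10 near Tg-labelled regions, 0.06 near WT-labelled regions and 0.03 over all genes, and 39.9%, 58.4% and 55.3% of genes lay above 0. Relative to the median of all genes, which was −0.20 without normalization and 0.11 with scaling to equal total length, the median near Tg-labelled regions was lower on each scale, with differences of −0.13 for quantile normalization, −0.17 without normalization and −0.14 with scaling. Without replicate 2 of Tg, 4 genes near Tg-labelled and 7 near WT-labelled regions were called, among 96 of 12406 genes tested (0.774%).

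**Figure D4:**
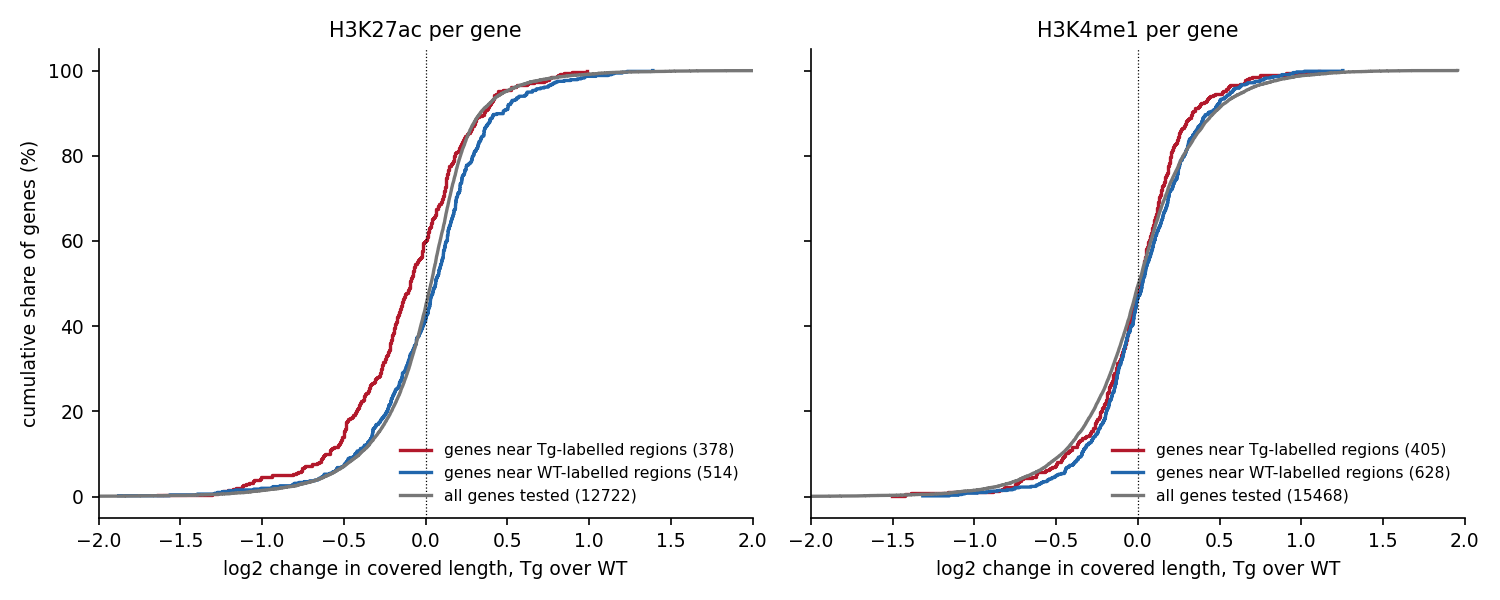
Cumulative share of genes (%) against the log2 change in peak length within 10 kb of gene ends, Tg over WT, for genes near Tg-labelled regions, genes near WT-labelled regions and all genes tested, with their numbers; H3K27ac left and H3K4me1 right. The H3K27ac curve of genes near Tg-labelled regions lies to the left (median −0.10), while the H3K4me1 medians are 0.01, 0.03 and 0.00.

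The 2 genes that fell near WT-labelled regions are neighbours on chromosome 7 and lie near the same WT-labelled region. Stard5 ends at position 83642328 and Il16 starts at 83642819, so the stretches in which their H3K27ac was summed overlap. Their values and the 2 calls are therefore not independent. Il16, which encodes a cytokine precursor that attracts CD4+ cells, had 637 and 718 bp of H3K27ac peaks in Tg libraries, against 5588 and 3812 bp in WT libraries. Stard5, a lipid transfer protein gene, had 1097 and 1353 bp in Tg, against 6473 and 4723 bp in WT. The groups were far apart for both genes, with log2 changes of −1.88 ± 0.17 and −1.57 ± 0.15 (limma, SE, adjusted p = 0.0463 for both). The WT-labelled region nearest to Il16, at chr7:83645178-83645520 inside the gene, had 0 and 0 bp of H3K27ac within 1 kb in Tg, against 654 and 276 bp in WT, so both marks were lower in Tg there by label, and H3K4me3 was higher and H3K27ac lower in Tg by peak name. Both genes missed the threshold in 12 of 14 alternative fits, among them those without replicate 1 of Tg (adjusted p = 0.0685 and 0.0757) and those without replicate 1 (0.383) or replicate 2 (0.313) of WT, and the log2 change of Il16 ranged from −2.31 to −0.76.

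Other genes near WT-labelled regions had large H3K27ac differences that did not pass the test. Ppt1, a lysosomal thioesterase gene, had 1166 and 1936 bp in Tg, against 6873 and 4926 bp in WT (adjusted p = 0.0843, limma). Tal2, a transcription factor gene activated in T cell leukaemia, had 795 and 1772 bp in Tg, against 5178 and 3802 bp in WT (adjusted p = 0.125). Skap1, an adaptor of T cell signalling, had 1246 and 976 bp in Tg, against 4092 and 3772 bp in WT (adjusted p = 0.125). Adamtsl3 had none in either Tg library, against 823 and 1146 bp in WT (adjusted p = 0.129). In all 4 the Tg libraries lay below the WT libraries, as they did at 5744 of the 12722 genes tested.

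On the higher side, Fndc7 had 992 and 2821 bp in Tg, against 871 and 273 bp in WT. Cbr3, a carbonyl reductase gene, had 799 and 634 bp in Tg and none in either WT library. Elf3, an epithelial ETS factor gene, had 893 and 1050 bp in Tg, against 471 and 0 bp in WT. None passed the test, with adjusted p values of 0.236, 0.133 and 0.103 (limma). The next 3 by size were 2200002J24Rik, Pdxp and Scp2, with log2 changes of 1.15, 1.14 and 1.12 and none past the threshold.

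Near Tg-labelled regions the 6 largest differences on the lower side exceeded those on the higher side in size. Col1a1, which encodes collagen I of stroma and bone, had 479 and 399 bp of H3K27ac in Tg, against 2938 and 2513 bp in WT, or −1.64 ± 0.23 on the log2 scale (SE, adjusted p = 0.0980 by limma). Th, the tyrosine hydroxylase gene, had 305 and 401 bp in Tg, against 1897 and 1684 bp in WT (−1.31 ± 0.16, adjusted p = 0.0843). Amer2, a regulator of WNT signalling, had 774 and 1468 bp in Tg, against 3901 and 3755 bp in WT (−1.21 ± 0.17, adjusted p = 0.0980). Lct, the lactase gene, had 0 and 542 bp in Tg, against 2626 and 802 bp in WT (−1.27 ± 0.40, adjusted p = 0.302). Zp3r had 0 and 215 bp in Tg, against 969 and 1184 bp in WT (−1.24 ± 0.18, adjusted p = 0.0980), and Acsbg3 had 0 and 1391 bp in Tg, against 3868 and 1225 bp in WT (−1.24 ± 0.60, adjusted p = 0.490). Of these 6 genes with the largest differences below 0 the groups overlapped only at Acsbg3, and none passed the threshold. The 6 with the largest values above 0 were Hsf5, Asb8, Gm5134, Dao, 1300017J02Rik and Igll1, with log2 changes from 0.99 down to 0.81, and none passed the test either. Hsf5, a heat shock factor gene, had 1517 and 1779 bp in Tg, against 698 and 818 bp in WT (adjusted p = 0.125), and Asb8 had 1241 and 630 bp in Tg, against 715 and 0 bp in WT, which overlap (adjusted p = 0.449).

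Genes of mature granulocytes lay near both groups of regions. Ltf, which encodes the granule protein lactoferrin, had 6623 and 5817 bp in Tg, against 17832 and 16841 bp in WT (−1.12 ± 0.16, limma adjusted p = 0.0980). It has 2 Tg-labelled regions, chr9:111035377-111035849 and chr9:111036467-111036753. Within 1 kb of the first lay 0 and 0 bp of H3K27ac in Tg, against 1366 and 1098 bp in WT, and within 1 kb of the second 0 and 281 bp in Tg, against 1355 and 1729 bp in WT. Padi4, whose enzyme citrullinates histones in neutrophils, lies near a WT-labelled region and had 2408 and 4032 bp in Tg, against 8969 and 7957 bp in WT (−1.01 ± 0.19, adjusted p = 0.135).

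Most genes of the granulocyte list had less H3K27ac in Tg, with a negative median under each scaling tried. Its 17 genes had 86.5 and 83.5 kb of H3K27ac peaks in Tg, against 170.3 and 167.0 kb in WT, and 16 were lower in both Tg libraries, although 1 of the 17 passed the test. Over all genes tested, 5744 of 12722 were lower in both Tg libraries. None of the 17 was at 0 in all 4 libraries. In H3K4me3 the same genes had 139.8 and 96.2 kb in the Tg-labelled libraries, against 93.2 and 91.2 kb in the WT-labelled ones, and replicate 1 of the Tg-labelled libraries was the only one far from the others. Only 1 of the 17 lay near a Tg-labelled and 1 near a WT-labelled region. The part of granulocytes in the region counts was not tested, and a smaller share of such cells cannot be told apart from less H3K27ac per cell.

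**Figure D5:**
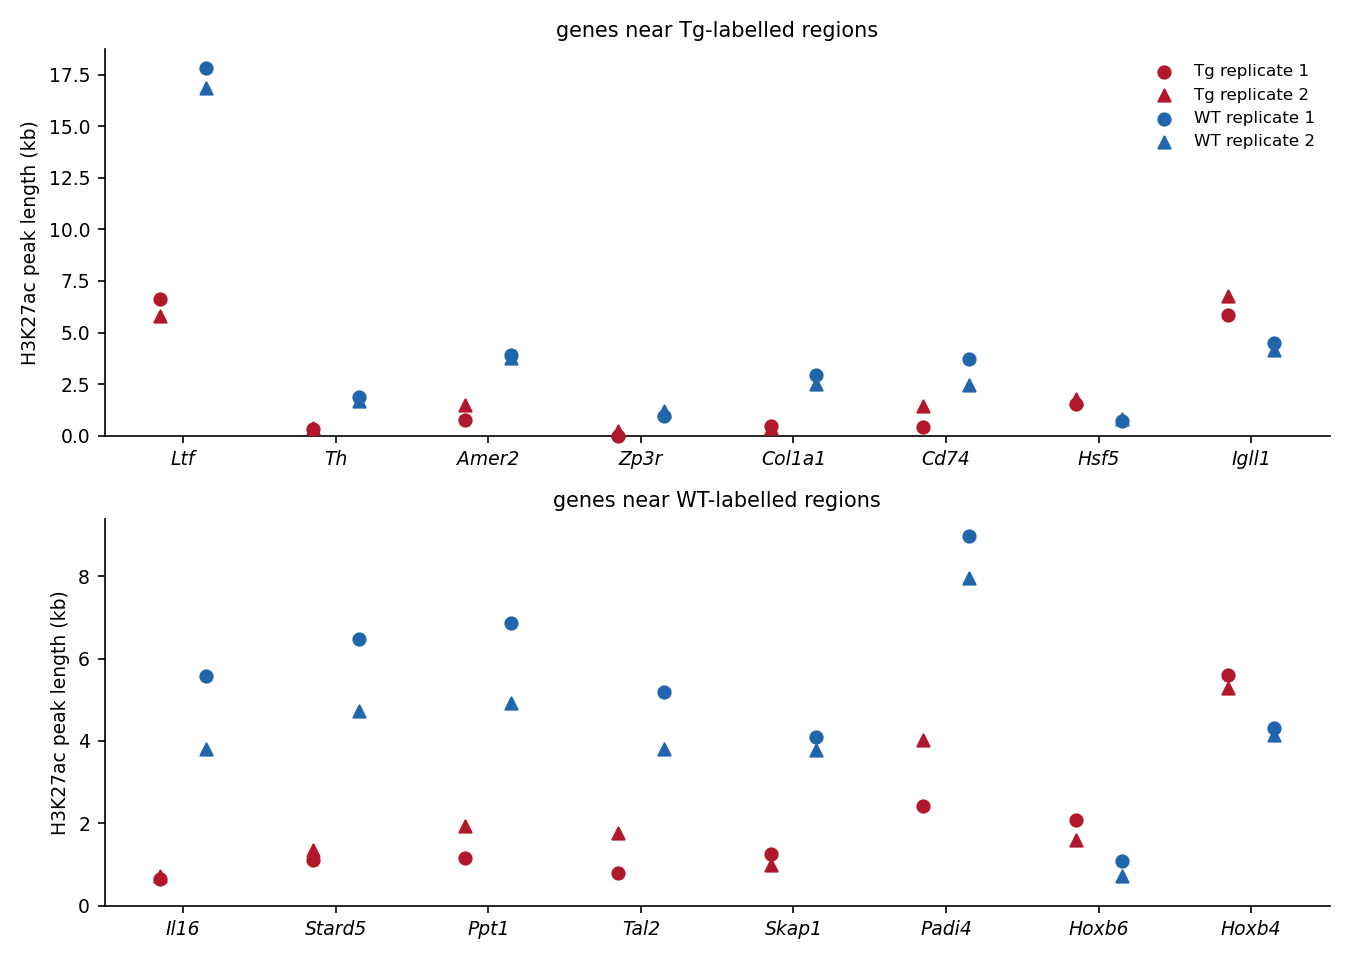
Length of H3K27ac peaks (kb) within 10 kb of the gene ends in each library, for 8 genes near Tg-labelled regions, above, and 8 near WT-labelled regions, below; red is Tg and blue WT, circles replicate 1 and triangles replicate 2. Ltf has 6623 and 5817 bp in Tg against 17832 and 16841 bp in WT, and Il16 and Stard5 are the pair that passed limma.

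Of the 20 gene lists, the B cell genes had the highest share near Tg-labelled regions. Of 15 B-lymphoid marker genes, 7 lay within 10 kb of one (46.7%), against 1.98% of all autosomal genes, and 3 lay near a WT-labelled region, against 3.32% of all autosomal genes. The 7 are Cd79a, a part of the B cell receptor; Pax5; Vpreb1 and Igll1, the surrogate light chain genes, which are neighbours on chromosome 16 and share a region; Cd74, the invariant chain; Rag1, a recombinase; and Il7r, the interleukin 7 receptor. The list was assembled with earlier results of these data known, and the H3K4me3 peaks that place its genes are those of the rule.

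The widths of these H3K4me3 regions differed between the 2 Tg-labelled libraries. At the Pax5 promoter, chr4:44709196-44711057, the peaks covered 1862 bp in replicate 1 and 199 bp in replicate 2 of the Tg-labelled libraries. Just inside the start of Rag1, chr2:101648645-101649340, they covered 602 and 238 bp, and in Il7r, chr15:9528047-9528674, 628 and 183 bp. At Vpreb3, a gene of pre-B cells that is not on the list and was named after its values were seen, chr10:75948408-75949635, they covered 1228 and 215 bp. Peaks at Cd79a covered 240 bp in replicate 1 and 162 bp in replicate 2, those at Cd74 248 and 289 bp, and those in the region shared by Igll1 and Vpreb1 172 and 248 bp. Replicate 1 was thus the wider at 4 of the 6 regions of listed genes and replicate 2 at the other two. Summed over the 15 genes, H3K4me3 covered 45.1 and 31.5 kb in the Tg-labelled libraries, against 31.0 and 26.7 kb in the WT-labelled ones.

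H3K27ac at the B cell genes gave no common direction. Ebf1 and Pax5 had no H3K27ac peak in any library, and the 15 genes together had 17.9 and 22.5 kb in Tg, against 23.6 and 20.2 kb in WT. Igll1 had 5830 and 6785 bp in Tg, against 4473 and 4137 bp in WT (0.81 ± 0.14, limma adjusted p = 0.125). Cd74 had 413 and 1426 bp in Tg, against 3707 and 2471 bp in WT (−1.18 ± 0.28, adjusted p = 0.198). Rag1 had 468 and 774 bp in Tg, against 771 and 672 bp in WT, which overlap. The median log2 change of the 11 tested B-lymphoid genes was 0.12, with 0 called, against 0.03 over all genes, and it was −0.08 against −0.20 without normalization.

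Genes of the Hox clusters had ends near WT-labelled regions. Of 21 genes of the Hoxa and Hoxb clusters none lay near a Tg-labelled region and 4 near a WT-labelled one (19%), namely Hoxb3, Hoxb4, Hoxb5 and Hoxb6. They share 1 region, chr11:96309338-96310185 inside Hoxb3, whose H3K4me3 covered 580 and 551 bp in the WT-labelled libraries. H3K27ac within 1 kb of it covered 1706 and 1215 bp in Tg, against 704 and 326 bp in WT, so both Tg libraries were higher. By peak name the marks had the same direction in this region and by label the opposite one. Within 10 kb of the ends of Hoxb3, H3K4me3 covered 4659 and 10504 bp in the Tg-labelled libraries. It covered 11701 and 10052 bp in the WT-labelled ones, so the labels overlapped and only replicate 1 of the Tg-labelled libraries was far from the others.

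The H3K27ac change per gene at the Hoxb genes pointed the same way as H3K27ac at that region. Hoxb6 had 2090 and 1599 bp of H3K27ac in Tg, against 1088 and 710 bp in WT (0.95 ± 0.23, limma adjusted p = 0.198). Hoxb4, which promotes self-renewal of blood stem cells, had 5595 and 5282 bp in Tg, against 4308 and 4142 bp in WT (0.62 ± 0.15, adjusted p = 0.207). Of the 15 tested genes of the 2 clusters 14 lay above 0, with a median of 0.87 and 0 called, as they did under each scaling tried; neighbours share windows and peaks, so they are not independent.

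Of 24 genes of stem cell function and self-renewal none had an end within 10 kb of a Tg-labelled region, although Runx1 holds 3 such regions farther inside, and 4 had one near a WT-labelled region (16.7%): Hoxb4, Erg, Lmo2 and Procr. In H3K27ac 12 of the 16 tested genes of the list lay above 0 and 4 below, with a median log2 change of 0.17 and 0 called, and a median of −0.09 without normalization. Of 10 marker genes of stem and progenitor cells, 1 (Kit) lay near a Tg-labelled and 2 (Lmo2 and Erg) near a WT-labelled region. Erg, an ETS factor, had 1886 and 1928 bp of H3K27ac in Tg, against 4361 and 2211 bp in WT, and Lmo2, a partner of Tal1, had 2733 and 4692 bp in Tg, against 5618 and 5097 bp in WT. Both are among the 4 genes below 0 and were lower in both Tg libraries, with log2 changes of −0.36 ± 0.24 and −0.21 ± 0.20 that did not pass limma (adjusted p = 0.606 and 0.715). The same order of libraries held at 5744 of the 12722 genes tested. Procr, an endothelial and stem cell receptor gene, had no H3K27ac peak in any library.

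The remaining lists had at most 3 members near the regions of a group. Of all autosomal genes 1.98% lay near Tg-labelled and 3.32% near WT-labelled regions. Each of these short lists with a member near a group lay above that group's share. In a list of 29 genes or fewer, 1 member is already enough for that. For those lists the order was set by their length and is no result about their genes. Developmental transcription factors numbered 0 of 32 near Tg-labelled and 2 near WT-labelled regions, Sox2 and Nkx2-1, and neither region had H3K27ac within 1 kb. Ribosomal protein genes numbered 1 and 3 of 27 (3.70% and 11.1%) and cell cycle genes 2 and 2 of 27 (7.41% each). NF-kB and TNF signalling genes numbered 2 (Relb and Ikbkb, 9.09%) and 0 of 22. Leukaemia genes numbered 1 (Kit) and 2 (Lmo2 and Tlx3) of 29, JAK-STAT genes 0 and 1 of 25, and interferon response genes 0 and 1 of 23. Among markers of other cells, erythroid genes numbered 1 and 0 of 17, megakaryocyte genes 1 and 0 of 16, T-lymphoid genes 1 and 1 of 15, monocyte genes 0 and 1 of 14, myeloid progenitor genes 0 and 1 of 14, stromal and endothelial genes 1 and 0 of 15, mast cell genes 0 and 1 of 11 and NK cell genes 0 and 0 of 10.

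Kit, the receptor used for the sort, had a Tg-labelled region 7825 bp from a gene end at chr5:75566900-75567162. Within 1 kb of it lay no H3K27ac in either Tg library, against 390 and 0 bp in WT. Around the gene H3K27ac covered 2177 and 2048 bp in Tg, against 2826 and 1948 bp in WT, which overlap (0.10 ± 0.18, limma adjusted p = 0.861). Vav1, a signalling gene of blood cells, had a WT-labelled region inside it, chr17:57288821-57289034, with 500 and 642 bp of H3K27ac in Tg, against 613 and 735 bp in WT.

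The strongest members were mostly away from gene ends. Among Tg-labelled regions 3 shared the highest strength of 46.6, one inside Ptprm (chr17:67193913-67194709), one inside Nos1ap (chr1:170545557-170545985) and one 7230 bp from Tomm7 (chr5:23831407-23831714). At Nos1ap, an adaptor of nitric oxide synthase, H3K27ac within 1 kb covered 688 and 1377 bp in Tg, against 1847 and 2413 bp in WT. Ptprm, a receptor phosphatase gene, had 0 and 499 bp in Tg, against 0 and 0 bp in WT, and Tomm7, a mitochondrial import gene, had none in any library.

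Among WT-labelled regions the strongest lay 3814 bp from Cfap300 (chr9:8017566-8017858), with a strength of 62.8 and H3K27ac of 402 and 0 bp in Tg, against 0 and 0 bp in WT. The next were 10569 bp from AB010352 (chr5:109900539-109900929, 594 and 0 bp in Tg, against 0 and 0 bp in WT), 537608 bp from Fancl (chr11:25848761-25849476) and 175974 bp from Gdi2 (chr13:3361829-3362101), the last 2 without H3K27ac in any library. The strongest WT-labelled region at a gene end was that of Noxa1, an activator of NADPH oxidase, at chr2:25094800-25095538. It too had no H3K27ac. None of these 5 WT-labelled regions had H3K27ac in both libraries of either genotype.

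Members were scattered. With regions of a group joined up to 100 kb apart, the 645 Tg-labelled regions formed 568 loci and the 984 WT-labelled regions 888 loci, of which 502 and 805 held a single region. The largest Tg-labelled locus held 8 regions in 24.3 kb near the start of the chromosome 9 sequence, chr9:3002962-3027285, with no gene. H3K27ac was higher in both Tg libraries at all 8, which are among the 27 such Tg-labelled regions, and without the locus 19 of 637 (2.98%) were higher and 280 (44.0%) lower. Sh3bp5 on chromosome 14 had 4 Tg-labelled regions, and Runx1, a master transcription factor of blood, had 3 inside the gene. At 2 of those H3K27ac was lower in both Tg libraries, with 1184 and 822 bp in Tg, against 1338 and 1477 bp in WT at chr16:92803367-92803759.

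H3K4me1 did not separate the genotypes at members. The share of Tg-labelled regions with an H3K4me1 peak was 77.5% and 87.1% in Tg, against 76.4% and 89.3% in WT (−0.543 points, exact permutation p = 1, two-sided). That of WT-labelled regions was 59.2% and 73.0% in Tg, against 55.4% and 73.9% in WT (1.47 points, p = 1, exact permutation test). Peak length within 1 kb was higher in both Tg libraries at 40 (6.20%) and lower at 41 (6.36%) of the Tg-labelled regions, and at 68 (6.91%) and 57 (5.79%) of the WT-labelled regions, beside backgrounds of 4.85% higher and 7.11% lower. A peak in both Tg and no WT libraries was seen at 2 Tg-labelled and 3 WT-labelled regions (0.310% and 0.305%, background 0.406%), and one in no Tg and both WT libraries at 7 and 9 (1.09% and 0.915%, background 0.769%).

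Per gene, limma called none of 15468 genes for H3K4me1 in either direction (0% rose and 0% fell), with 562 higher (3.63%) and 686 lower (4.43%) at an unadjusted p under 0.05. Near Tg-labelled regions the medians were 0.01, near WT-labelled regions 0.03 and over all genes 0.00. With 2 libraries per genotype, p-values that miss the threshold do not show that the marks were alike.

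Facts of the whole series touch these results at a few points. The lists held 34920 and 36676 H3K4me3 peaks in Tg-labelled libraries, against 39584 and 37147 in WT-labelled ones, and 33179 and 38839 H3K27ac peaks in Tg, against 42124 and 31257 in WT. They hold no read counts, so depth is unknown. Peaks of H3K4me3 on 4 Y-linked genes (Ddx3y, Uty, Kdm5d and Eif2s3y) were in replicate 1 of both labels and in neither replicate 2. H3K27ac and H3K4me1 had no peak on these genes in any library, and only autosomes were used. Phf6 itself, on chromosome X, had 1 H3K4me3 peak within 2 kb of a gene end in each of the 4 libraries.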

How the data were processed

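H3K27ac, H3K4me1 and H3K4me3 ChIP-seq of cKit+ mouse bone marrow cells was made with single-end reads of 75 bp, per the labels' protocols. The tools named are MACS2, deepTools, SAMtools, Bowtie2, Trim Galore and FastQC and the build is mm10, per the submitters' processing notes; versions, settings and control libraries are not given in the sources used here. The authors deposited 1 peak list per library, with each peak's position, a score, a ratio (fold enrichment), and the −log10 of its p-value and q-value. The deposited −log10 q-value ranked peaks within a list and set a stricter threshold as an alternative; no value in the text uses the deposited ratio or score. No counts are given, so depth is unknown and no interval that needs it was computed. A change in depth or background alters which weak peaks are called, and the members are weak peaks.

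Peaks of the 4 H3K4me3 lists on 19 autosomes that overlapped by at least 1 bp were merged, and presence in a library needed 1 bp of a peak. Peak lengths of the other marks were summed within 1 kb of each region, and per gene within 10 kb of either end of RefSeq protein-coding genes (GRCm38.p6, the assembly called mm10), then 500 bp were added and log2 values were quantile normalized; genes needed a peak in 2 of the 4 libraries or more. Tg was compared with WT by limma 3.58.1 in R 4.3.3 (Benjamini-Hochberg, 0.05), which was tested on simulated data, and shares by exact permutation tests. Promoter sequences are RefSeq's. Python 3.11.15, numpy 2.4.6, pandas 2.3.3 and matplotlib 3.10.9 were used. Named genes were the nearest to the 12 strongest regions of a group, those past limma, the 6 largest changes each way, at most 4 members of each list, the 5 strongest regions away from gene ends, the locus with most members within 100 kb, Phf6, Vav1 and Kit; not all are given in the text. The members, lists and tests were chosen with earlier results of these data known. Replicate numbers were not taken as pairs, since only 2 pairs exist and no label ties them to a shared batch. Deviations from the genotype mean correlated between same-numbered libraries at −0.20 for H3K27ac and 0.21 for H3K4me1. With the replicate number as a block, H3K4me1 again had 0 calls among 15468 genes.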

Additional observations from a re-analysis of the deposited data

Results flagged for a closer look

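Phf6, on chromosome X and so outside the regions compared, had H3K4me3 peaks over 2 kb inside the gene, which no comparison used. There were 0 and 0 such peaks in the libraries labelled Tg, against 6 in replicate 1 and 4 in replicate 2 labelled WT. By peak name the libraries with these peaks are Tg274. H3K4me1 peaks over 2 kb inside Phf6 numbered 1 and 6 in Tg, against 0 and 0 in WT, in lists whose peak names match their labels. H3K27ac had none there in any library. The cause was not tested.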

How the results depend on the processing

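The depth of the libraries is unknown and each group has 2, so no share of regions could pass a test. Tg-labelled regions numbered 366 and 196 at a −log10 q of at least 5 and 10, and 1211 to 3751 without 1 library; WT-labelled regions numbered 402 at 10 and 1823 to 5980. H3K27ac calls over all genes, 30 by the main test, numbered 1 without normalization, 5 with scaling, 0 with 100 bp and 100 with 2000 bp added, 12 and 55 in windows of 5 and 25 kb, 19 without the filter, 0 at −log10 q of at least 5 and 0 to 96 without 1 library. With the replicate block 0 calls were left, also near WT-labelled regions, and with numbers crossed (added after the data were seen, since same-numbered deviations correlated at −0.20) 1 and 0. Near Tg-labelled regions the calls were 7 with 2000 bp, 1 at 25 kb and 0 to 4 without 1 library (4 without replicate 2 of Tg). Near WT-labelled regions, where 0 rose and 2 fell, they were 10 with 2000 bp, 1 at 5 kb and 3 at 25 kb. The 3 at 25 kb rose and were other genes, while Il16 and Stard5 stayed below 0 there (log2 change of −0.76 for both). Calls near WT-labelled regions numbered 0 without normalization, with scaling, with 100 bp, without the filter, at −log10 q of 5 and for genes within 1 kb. The H3K27ac median near Tg-labelled regions was −0.37 without normalization, where that of all genes was −0.20, −0.031 with scaling (all genes 0.11), −0.056 at 25 kb, −0.023 within 1 kb, and −0.13 to −0.044 without 1 library. Near WT-labelled regions it was −0.18, 0.12 with scaling, 0.033 with 2000 bp, 0.00 without the filter and 0.029 to 0.080 without 1 library. For H3K4me1, calls numbered 1 without the filter; medians near Tg-labelled regions were −0.019, −0.046 with scaling, −0.0054 at −log10 q of 5 and −0.018 to 0.012, and near WT-labelled regions −0.011, −0.033 with scaling, 0.00 without the filter, 0.0028 at −log10 q of 5, 0.070 within 1 kb and 0.018 to 0.072. Without added flanks, 141 Tg-labelled regions were lower and 14 higher in H3K27ac in Tg, and 63 WT-labelled were lower; with 5 kb 191 WT-labelled were lower; after quantile normalization 185 and 88 Tg-labelled and 66 and 145 WT-labelled. Without 1 library, 296 to 410 and 33 to 73 Tg-labelled and 146 to 246 and 70 to 137 WT-labelled regions were lower and higher. The H3K27ac share at Tg-labelled regions stayed lower in Tg, by −7.29 to −21.9 points, without any 1 library, while that at WT-labelled regions changed sign (−3.25 to 3.46). The cause of these shifts was not tested.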
